A study of Mus musculus with 4 samples.

Results

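Cyclic AMP-dependent protein kinase (PKA) was followed here through the 9 genes that encode its catalytic subunits, its regulatory subunits and its small inhibitor proteins in the mouse hypothalamus. The members were taken by name from the deposited table after the RefSeq transcripts of each gene symbol had been summed. All 9 were found among 16339 genes, all 9 passed the filter on low counts that left 14344 genes for testing, and they were listed as 35 of the 30891 transcripts that carried a gene name. The data were RNA sequencing counts from male mice on a C57BL/6 background that had received a Western diet (WD, a 60% fat diet together with a 30% sucrose solution) for 12 weeks from 8 weeks of age. The WT WD group held 2 libraries of wild-type mice, and the Tas1r3-/- WD group held 2 libraries of littermates that lacked Tas1r3, a subunit of the sweet and umami taste receptors. Both groups therefore shared the diet, the sex and the age, and by their labels differed in genotype. The knockout was conventional, meaning that the gene was missing in the whole body from conception, and the line had been crossed back to C57BL/6 for at least 7 generations. The study's methods give 3 mice for each group, whereas 2 libraries for each group were analysed here. Where all libraries were used, the p-values measure the spread between them. The comparison asks whether the loss of Tas1r3 went with other RNA levels of the kinase that phosphorylates CREB in the hypothalamus of WD-fed mice.

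PKA is the main intracellular receptor for cyclic AMP. In its resting form a dimer of regulatory subunits holds a pair of catalytic subunits inactive, and the binding of cyclic AMP to the regulatory subunits releases the kinase, which then phosphorylates ion channels, metabolic enzymes and transcription factors such as CREB. Inhibitor proteins of the PKI family bind free catalytic subunits and carry them out of the nucleus. In neurons of the hypothalamus this pathway lies downstream of receptors for feeding peptides such as the melanocortins.

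Regulatory subunits and PKI proteins block the catalytic site with a short stretch that resembles a substrate, and the coding DNA of that stretch is shown because it is the feature by which the 7 inhibiting members divide into classes. Each line gives 21 bases of coding exon, 5′ to 3′ in the direction of transcription, from GENCODE M39 on GRCm39. Capitals mark the codons of the arginine pair and the codon at the position where a substrate would carry the phosphorylated residue.
Prkar1a: cggCGCCGAggtGCTatcagt
Prkar1b: cgcCGGCGGggcGGTgtgagt
Prkar2a: actAGACGAgtaTCAgtctgt
Prkar2b: acaAGGCGTgccTCGgtctgt
Pkia: ggtAGAAGAaatGCAatacat
Pkib: ggcCGCCGCaatGCCttaccc
Pkig: ggcCGTCGGaatGCAgtccct
The last capital codon reads alanine in Prkar1a and in the 3 inhibitors, glycine in Prkar1b, and serine in Prkar2a and Prkar2b. Type II regulatory subunits can thus be phosphorylated by the kinase they hold, and type I subunits and PKI proteins cannot at this site. The stretch lies in exon 3 of 11 in Prkar1a (chr11:109550930-109550950, plus strand) and in exon 3 of 11 in Prkar1b (chr5:139094284-139094304, minus strand). It is split between exons 2 and 3 in Prkar2a (chr9:108591492-108594066, plus strand, intron included) and in Prkar2b (chr12:32043778-32088636, minus strand, intron included). In the inhibitors, all on the plus strand, it lies in exon 2 of 3 in Pkia (chr3:7502476-7502496), exon 5 of 6 in Pkib (chr10:57604266-57604286) and exon 3 of 4 in Pkig (chr2:163563122-163563142).

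The libraries held between 5728729 and 6180137 estimated counts in named genes. Tas1r3 was read at 35.3 and 27 counts in the WT WD libraries and at 7 and 7.01 counts in the Tas1r3-/- WD libraries, so the targeted gene was lower in both libraries labelled as knockout. WT WD replicate 2 did not carry the marker RNAs of the labelled tissue. The summed level of 12 hypothalamic markers was 20.7 CPM (counts scaled to the size of the library) there against 930 to 1647 CPM in the other 3 libraries, each of the 12 was lowest there, and Nkx2-1 was at 0 counts, which allows up to 0.487 CPM. All 6 thalamic markers were highest there, with a sum of 1951 CPM against 315 to 468 CPM, as was the sum of the choroid plexus list, at 702 CPM against 7.01 to 17.2 CPM. Tas1r3-/- WD replicate 1 held 1426 CPM of pituitary hormone RNAs against 1.48 to 14.6 CPM elsewhere. Differences between the genotypes are therefore given with and without WT WD replicate 2. A fit that leaves out a WT WD library takes its spread from the Tas1r3-/- WD libraries alone. Its p-values therefore hold no spread within WT WD. The part of these tissue differences in the results was not tested. In bulk tissue, fewer cells of a type and less RNA per cell cannot be told apart.

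**Figure D1:**
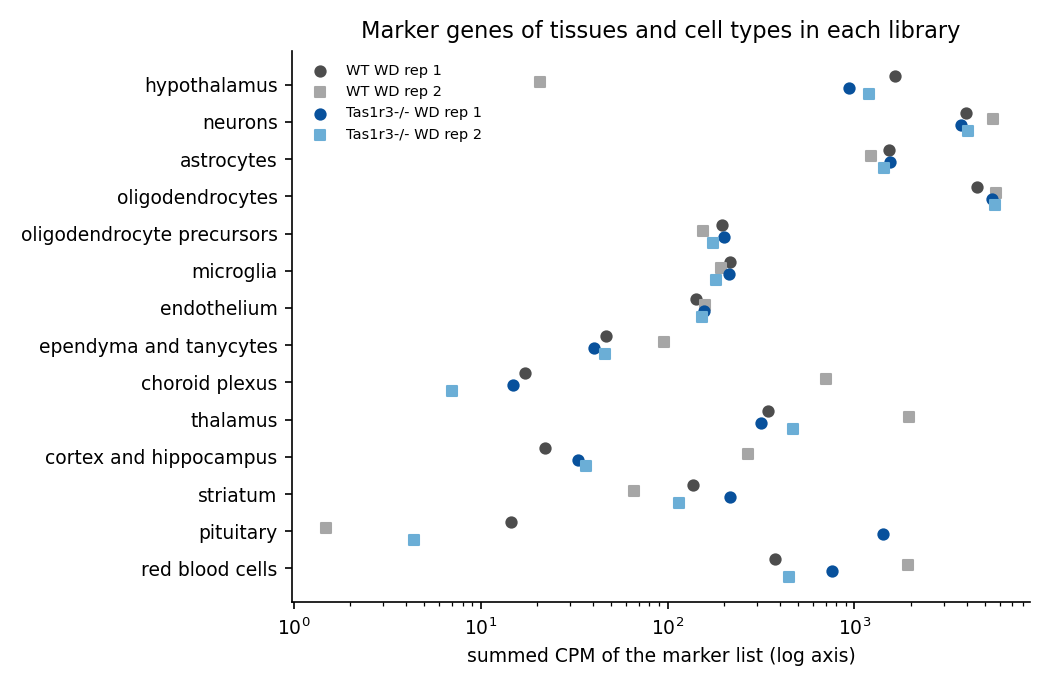
Summed CPM (log axis) of each marker list in the 4 libraries, with a point for each library. WT WD replicate 2 sits at 20.7 CPM for the hypothalamic list and 1951 CPM for the thalamic list, apart from the other 3 libraries on both.

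No member was called between the genotypes. In the quasi-likelihood test of edgeR, adjusted after Benjamini-Hochberg, a call needed an adjusted p under 0.05 and a change of at least 1.5-fold, and 0 of 9 members met it, beside 0% of the 14344 genes tested. At an unadjusted p under 0.05 the count was again 0 of 9, beside 5.38% of all genes, and DESeq2 called 8 genes (0.0558%) and no member. Without WT WD replicate 2, edgeR called 32 genes (0.217%) and no member. The mean was higher in Tas1r3-/- WD for 8 of the 9 members, with Pkib the exception, beside 49% of all genes. Without WT WD replicate 2, 4 of 9 were higher and 5 lower, beside 50.4% of genes higher. The median log2 fold change of the members was 0.09 with all libraries and -0.02 without WT WD replicate 2, and over all genes it was -0.01 and 0.00. WT WD replicate 2 thus decided on which side most members lay.

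Tas1r3-/- WD was above WT WD in all pairings of libraries in 4 members (Prkar1a, Prkar2a, Prkar2b and Pkia), beside 20.6% of all genes, and below it in 1 member (Pkib), beside 19% of genes. In either direction this was 5 of 9 members, beside 39.6% of genes. Against WT WD replicate 1 alone, both Tas1r3-/- WD libraries were above it in 4 members, beside 37.6% of genes, and below it in 4, beside 37.4%. Replicates of a group were closer for the members than for genes at large. The genes at large were not matched to the members in level, so this cannot be read as a trait of the members. The median size of the log2 difference between the WT WD replicates was 0.14 over the members and 0.29 over all genes, and between the Tas1r3-/- WD replicates it was 0.10 and 0.15.

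**Figure D2:**
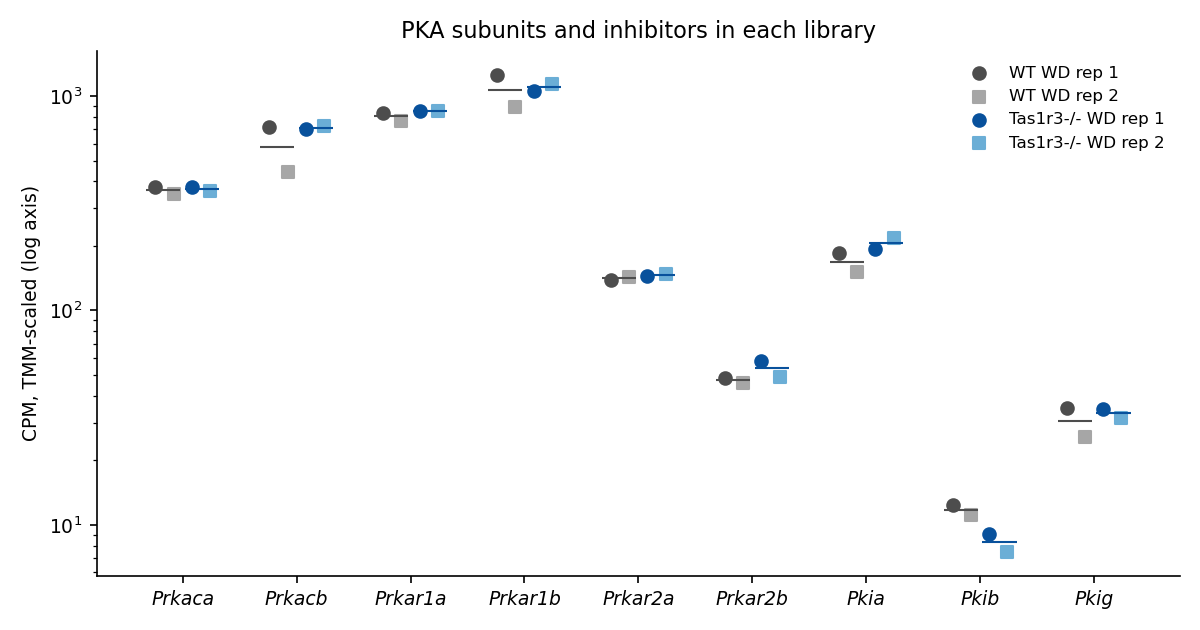
CPM scaled by TMM (log axis) of the 9 members, with a point for each library and a line at the mean of each group. The widest gaps between replicates of a group are at Prkacb, where WT WD replicate 2 is at 440 CPM and the others between 700 and 724 CPM, and at Prkar1b, where the WT WD libraries are at 1258 and 885 CPM.

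The catalytic subunits are the kinase itself. Prkaca (ENSMUSG00000005469, chr8:84699575-84723091 on GRCm39, plus strand, 10 exons) encodes the alpha isoform, which is made in nearly all tissues. Its level was 377 and 350 CPM in WT WD against 374 and 361 CPM in Tas1r3-/- WD. The groups overlapped, and the 4 libraries were within a narrow range. The log2 fold change was 0.02 (SE 0.13, adjusted p = 0.979, edgeR), with a 95% interval from -0.31 to 0.34, and without WT WD replicate 2 it was -0.04 (adjusted p = 0.902).

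Prkacb (ENSMUSG00000005034, chr3:146435311-146518793, minus strand, 10 exons) encodes the beta isoform, which is prominent in brain. The gene stood at 720 and 440 CPM in WT WD against 700 and 724 CPM in Tas1r3-/- WD. WT WD replicate 2 was low and the other 3 libraries were alike. The exact Poisson intervals, which cover counting error only, ran from 423 to 457 CPM in WT WD replicate 2 and from 699 to 742 CPM in WT WD replicate 1. Its log2 fold change was 0.30 (SE 0.26, adjusted p = 0.781, edgeR), with an interval from -0.37 to 0.96. Its size rested on which WT WD library was used. Without replicate 2 it was -0.02. Without replicate 1 it was 0.70, and the only WT WD library left was the one low in hypothalamic markers. The low Prkacb level in WT WD replicate 2 came with the low hypothalamic markers given above. The summed neuronal markers were higher there, at 5476 CPM against 3732 to 4063 CPM, and 4 of the 6 were highest there. Rbfox3 (128 against 133 CPM) and Eno2 (1058 against 1086 CPM) were lower there than in WT WD replicate 1.

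The regulatory subunits hold the kinase inactive and, through anchoring proteins, set where it sits in the cell. Prkar1a (ENSMUSG00000020612, chr11:109513434-109560633, plus strand, 11 exons) encodes RI alpha, the type I subunit found in nearly all cells. The libraries gave 836 and 768 CPM in WT WD against 849 and 855 CPM in Tas1r3-/- WD. The groups did not overlap, and WT WD replicate 1 lay close to the Tas1r3-/- WD libraries. In the fit, the log2 fold change was 0.09 (SE 0.13, adjusted p = 0.863, edgeR) and 0.03 without WT WD replicate 2 (adjusted p = 0.906).

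Prkar1b (ENSMUSG00000025855, chr5:139002025-139136646, minus strand, 11 exons) encodes RI beta, the type I subunit of neurons. It was found at 1258 and 885 CPM in WT WD against 1057 and 1137 CPM in Tas1r3-/- WD. The WT WD libraries lay on either side of the Tas1r3-/- WD libraries, and the exact Poisson intervals of the 4 libraries did not touch. Its log2 fold change by the same test was 0.03 (SE 0.21, adjusted p = 0.974, edgeR). It turned to -0.20 without WT WD replicate 2 and was 0.32 without WT WD replicate 1. The direction for the neuronal RI subunit thus followed the WT WD library used.

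Prkar2a (ENSMUSG00000032601, chr9:108566513-108627641, plus strand, 11 exons) encodes RII alpha, a widely made type II subunit. Its libraries were at 138 and 144 CPM in WT WD against 145 and 148 CPM in Tas1r3-/- WD. The groups did not overlap but were separated by a small gap, and this was the only member that was not lower in WT WD replicate 2 than in replicate 1. The fitted log2 fold change was 0.06 (SE 0.12, adjusted p = 0.914, edgeR) and 0.08 without WT WD replicate 2 (adjusted p = 0.782).

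Prkar2b (ENSMUSG00000002997, chr12:32008448-32111363, minus strand, 11 exons) encodes RII beta, the type II subunit known for its high level in brain and adipose tissue and for the lean phenotype of mice that lack it. The gene was read at 48.6 and 45.7 CPM in WT WD against 58.2 and 49.2 CPM in Tas1r3-/- WD. Tas1r3-/- WD replicate 1 was highest, and replicate 2 was barely above WT WD replicate 1. Between genotypes the log2 fold change was 0.19 (SE 0.14, adjusted p = 0.773, edgeR) and 0.14 without WT WD replicate 2 (adjusted p = 0.715).

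The PKI inhibitors bind free catalytic subunits. Pkia (ENSMUSG00000027499, chr3:7431432-7510429, plus strand, 3 exons) encodes PKI alpha, a form found in muscle and brain. Levels stood at 184 and 151 CPM in WT WD against 194 and 218 CPM in Tas1r3-/- WD. The groups did not overlap, and WT WD replicate 2 was lowest. In edgeR the log2 fold change was 0.30 (SE 0.16, adjusted p = 0.756), with an interval from -0.12 to 0.72. It was 0.16 without WT WD replicate 2 (adjusted p = 0.603) and 0.45 without WT WD replicate 1 (adjusted p = 0.0270, short of 1.5-fold).

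Pkib (ENSMUSG00000019876, chr10:57508077-57617208, plus strand, 6 exons) encodes PKI beta and was the lowest member and the only one with a lower mean in Tas1r3-/- WD. Its libraries gave 12.4 and 11.1 CPM in WT WD against 9.10 and 7.49 CPM in Tas1r3-/- WD, from 72.0, 67.6, 56.6 and 42.7 estimated counts. The groups did not overlap. The genotypes differed by a log2 fold change of -0.49 (SE 0.24, unadjusted p = 0.0967, adjusted p = 0.756, edgeR), with an interval from -1.12 to 0.13. It kept its sign whichever library was left out, between -0.64 and -0.37, and was -0.56 without WT WD replicate 2 (adjusted p = 0.450). At these counts the exact Poisson intervals of WT WD replicate 1, from 9.68 to 15.6 CPM, and Tas1r3-/- WD replicate 2, from 5.46 to 10.2 CPM, overlapped.

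Pkig (ENSMUSG00000035268, chr2:163500294-163568080, plus strand, 4 exons) encodes PKI gamma, which is made in many tissues. The gene came to 35.2 and 25.7 CPM in WT WD against 34.8 and 31.6 CPM in Tas1r3-/- WD. The groups overlapped, with WT WD replicate 2 lowest. On the log2 scale the change was 0.13 (SE 0.21, adjusted p = 0.881, edgeR) and turned to -0.08 without WT WD replicate 2 (adjusted p = 0.855).

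**Figure D3:**
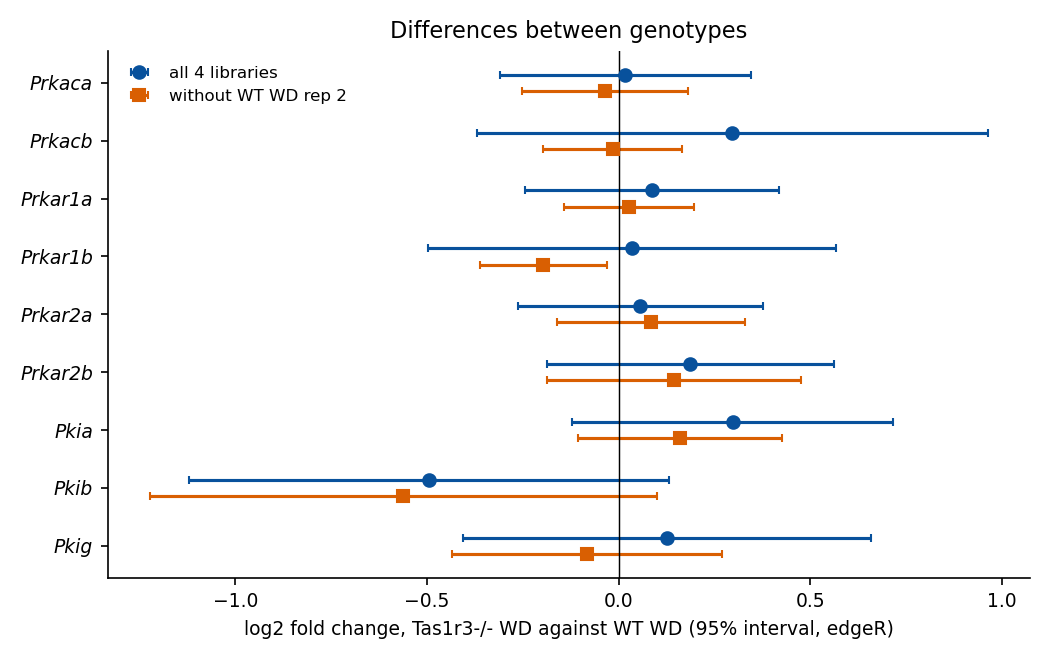
Log2 fold change of each member in Tas1r3-/- WD against WT WD with its 95% interval from edgeR, with all 4 libraries (circles) and without WT WD replicate 2 (squares). Prkacb moves from 0.30 to -0.02 and Prkar1b from 0.03 to -0.20, and Pkib stays at or below -0.49.

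Levels were compared between genes as CPM per kilobase of the canonical GENCODE transcript. The order of the mean levels over the 4 libraries was Prkar1b (381 CPM per kb), Prkar1a (217), Prkaca (156), Prkacb (145), Pkia (47.7), Pkig (31.3), Prkar2a (28.8), Prkar2b (14.5) and Pkib (1.82). Neighbours in this order had ranges that did not overlap, except for Prkaca with Prkacb and for Pkig with Prkar2a. Prkaca was above Prkacb in 2 of 4 libraries, and Pkig was above Prkar2a in 3 of 4. The order of Prkaca and Prkacb turned without WT WD replicate 2, with means of 158 and 161 CPM per kb and ranges that still overlapped. The ranges of Pkig and Prkar2a no longer overlapped there, but the order of this pair rests on the length used. Pkig has 1018 bases in its canonical transcript and a median of 1153 over its CCDS (consensus coding) transcripts. Prkar2a has 4997 bases by both. Type I regulatory RNA, with its alanine or glycine at the inhibitor site, made up 94.1% and 92.4% of the regulatory level in WT WD against 92.8% and 93.4% in Tas1r3-/- WD. The type II subunits with a serine there were thus a small share of the regulatory RNA in every library.

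Summed by role, the catalytic genes made up 28.6% to 30.5% of the members' level per length, the regulatory genes 61.3% to 63.8% and the inhibitors 7.57% to 8.21%. The regulatory to catalytic ratio was 2.17 and 2.23 in WT WD against 2.01 and 2.10 in Tas1r3-/- WD. Both Tas1r3-/- WD libraries thus lay below both WT WD libraries, but the WT WD libraries were unlike in the genes summed. Prkar1b was highest in WT WD replicate 1 (441 CPM per kb) and lowest in replicate 2 (311), where Prkacb was also lowest (99.0). The difference in the ratio was -0.10 on the log2 scale and -0.08 without WT WD replicate 2. An exact permutation test over the 4 libraries, two-sided, gave p = 0.333, the smallest that 2 against 2 can give.

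The inhibitor to catalytic ratio was 0.260 and 0.265 in WT WD against 0.269 and 0.277 in Tas1r3-/- WD. Here both Tas1r3-/- WD libraries lay above, by 0.06 on the log2 scale and by 0.07 without WT WD replicate 2 (exact permutation p = 0.333). This separation depended on the scaling by length. From CPM not divided by length the ratio was 0.211 and 0.238 in WT WD against 0.222 and 0.237 in Tas1r3-/- WD, and the groups overlapped, with a difference of 0.03 on the log2 scale (exact permutation p = 1.0). Pkia supplied most of the inhibitor level, with 56.1% and 58.5% in WT WD against 58.0% and 63.2% in Tas1r3-/- WD. With 2 libraries against 2, neither ratio could pass a threshold of 0.05.

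Prkacb made up 50.2% and 39.9% of the catalytic level in WT WD against 49.6% and 51.4% in Tas1r3-/- WD. The groups overlapped, and only WT WD replicate 2 was away from an even split with Prkaca. This even split depended on the scaling by length. In CPM not divided by length, Prkacb was above Prkaca in every library, at 720 and 440 CPM against 377 and 350 CPM in WT WD. In Tas1r3-/- WD the values were 700 and 724 CPM against 374 and 361 CPM. The difference was 5.49 percentage points (exact permutation p = 0.667) and 0.349 points without WT WD replicate 2.

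**Figure D4:**
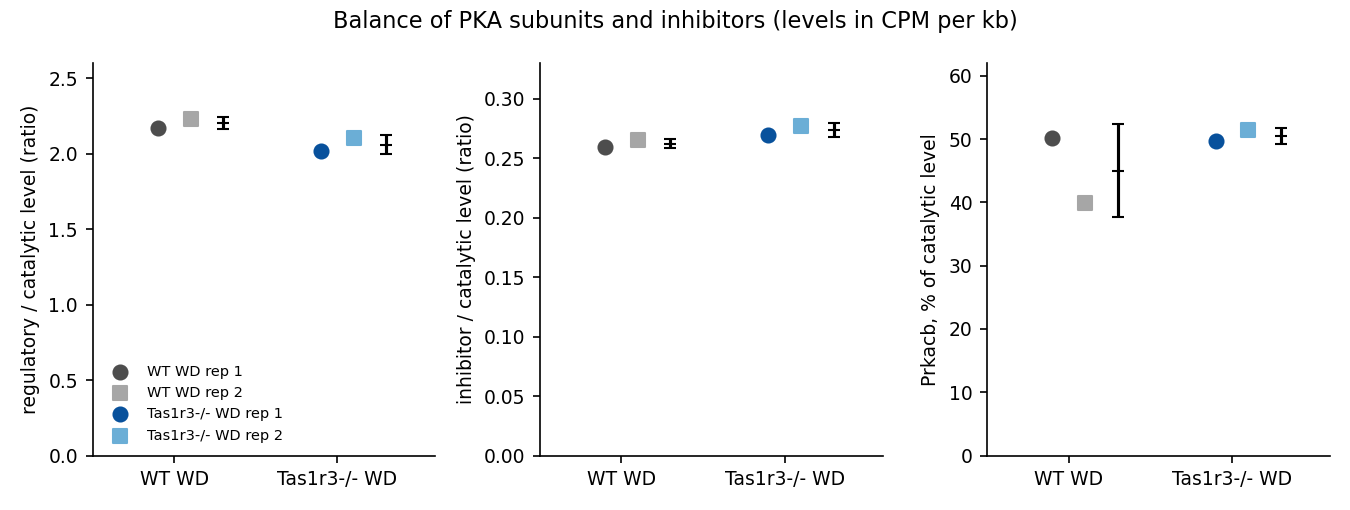
Ratio of the summed regulatory level and of the summed inhibitor level to the catalytic level, and the percentage of the catalytic level that came from Prkacb, all from CPM per kb. Points are libraries, and the bar beside each group is its mean with the SD (n = 2). The regulatory ratio lies between 2.01 and 2.23 in every library, and WT WD replicate 2 stands at 39.9% for Prkacb.

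The transcripts were tested in the same way over 25699 transcripts. Of the 35 that belong to the members, 31 passed the filter and 0 were called, beside 0% of all transcripts, and the lowest adjusted p was 0.939 (edgeR). At an unadjusted p under 0.05 the members had 0 and all transcripts 4.59%, and DESeq2 called 7 transcripts, none of them from a member. Tas1r3-/- WD was above WT WD in all pairings of libraries in 8 transcripts, beside 17.9% of all, and below them in 4, beside 17.8%. Without WT WD replicate 2, 33 member transcripts were tested and edgeR called 0 transcripts of any gene. NM_001373913 of Prkar1a was the 1 member transcript with an unadjusted p under 0.05 there, beside 7.26% of all transcripts, and 17 of the 33 were higher in mean, beside 51.3%. Prkar2a and Pkia were listed as a single transcript each.

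Prkaca was divided between NM_008854 and NM_001277898. NM_008854 had 1744 and 1662 estimated counts in WT WD against 1706 and 1538 in Tas1r3-/- WD, and NM_001277898 had 452 and 459 in WT WD against 624 and 521 in Tas1r3-/- WD. The share of NM_001277898 in the gene was 20.6% and 21.6% in WT WD against 26.8% and 25.3% in Tas1r3-/- WD, so the gene total was even while its makeup lay apart between the groups. The share was 21.1% ± 0.751 in WT WD and 26.0% ± 1.03 in Tas1r3-/- WD (SD, n = 2), a difference of 4.93 percentage points (exact permutation p = 0.333, the smallest possible) and of 5.46 points without WT WD replicate 2. Its own log2 fold change was 0.31 (SE 0.16, adjusted p = 0.939, edgeR) and that of NM_008854 was -0.09 (adjusted p = 0.973). These were 0.29 and -0.15 without WT WD replicate 2. Shares that did not overlap between the groups were common, at 32.9% of all transcripts of genes with several, and were seen in 13 of the 33 such transcripts of the members.

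The study reported Prkaca by quantitative PCR in a hypothalamic neuronal cell line, in hippocampal tissue and in a hippocampal cell line, and not in hypothalamic tissue. The primers are shown to place their product on the gene. Whether the product separates the RefSeq transcripts above was not examined. They are given 5′ to 3′, with no part marked.
Prkaca forward: ctaaagcagatcgagcacactc
Prkaca reverse: gccaccagctacatactcca
The forward primer matched exon 4 of Prkaca-201 (chr8:84713475-84713496 on GRCm39) and the reverse primer exon 5 (chr8:84714937-84714956), for a product of 135 bp that spans the intron between them. The product was found in 13 of 15 GENCODE transcripts of Prkaca and in 0 transcripts of the other members.

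Prkacb had 4 transcripts, of which NM_011100, NM_001164199 and NM_001164198 held most counts. The Tas1r3-/- WD replicates differed from each other in the leading transcript, with NM_011100 at 41.7% in replicate 1 and 26.0% in replicate 2, although the gene totals were close, at 700 and 724 CPM. NM_001164200, the minor one, had 182 and 128 counts in WT WD against 225 and 303 in Tas1r3-/- WD. It had the lowest unadjusted p of the members' transcripts, at 0.0658, with a log2 fold change of 0.76 (adjusted p = 0.939, edgeR) and of 0.50 without WT WD replicate 2.

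Prkar1a had 8 transcripts. NM_001313975 led with 34.0% and 32.2% of the gene in WT WD against 42.2% and 34.7% in Tas1r3-/- WD, and its log2 fold change was 0.29 (adjusted p = 0.939, edgeR) and 0.19 without WT WD replicate 2. Prkar1b had 7 transcripts, with NM_008923 in the lead at 28.4% to 41.5%, lowest in Tas1r3-/- WD replicate 2. In Prkar2b, NM_011158 held 74.6% to 87.3%, and the minor NM_001364407 had 38.1 and 22.4 counts in WT WD against 73.2 and 43.8 in Tas1r3-/- WD, a log2 fold change of 0.93 (SE 0.54, adjusted p = 0.939, edgeR) and of 0.56 without WT WD replicate 2.

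The inhibitor transcripts varied most within groups. Pkib NM_001039051 had 49.6 and 46.1 counts in WT WD against 37.7 and 5.61 in Tas1r3-/- WD, or 68.9%, 68.1%, 66.5% and 13.1% of the gene. Tas1r3-/- WD replicate 2 alone was low, and there NM_001039052 and NM_001039053 took 47.7% and 34.2%. The counts of these last transcripts stood in a ratio of 1.40 in each of the 4 libraries, so they were not independent estimates. Pkig was split between NM_001039391, with 70.3% and 43.9% in WT WD against 66.5% and 48.8% in Tas1r3-/- WD, and NM_001164055, with 22.1%, 53.3%, 27.6% and 39.1% in the same order. In both groups replicate 2 held less of NM_001039391 than replicate 1, and the genotypes overlapped.

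**Figure D5:**
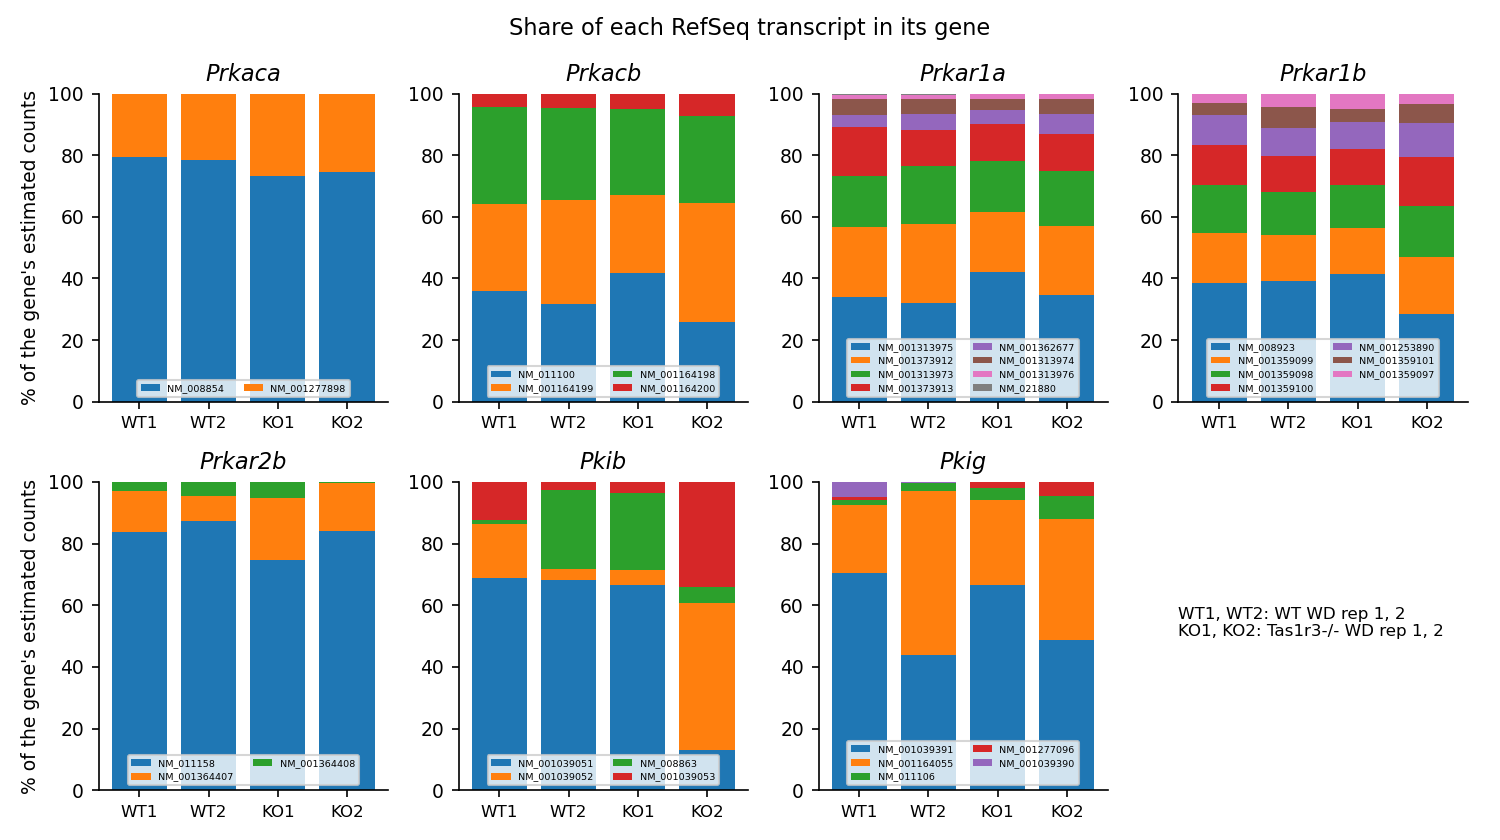
Percentage of each gene's estimated counts assigned to each RefSeq transcript in the 4 libraries, for the 7 members with several transcripts. The share of Prkaca NM_001277898 is 20.6% and 21.6% in WT WD against 26.8% and 25.3% in Tas1r3-/- WD, and Pkib changes its leading transcript in Tas1r3-/- WD replicate 2.

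Members of a class share sequence, and how reads were split between them was not examined. The coding sequences of Prkaca and Prkacb were 80.2% identical, those of Prkar2a and Prkar2b 70.5%, and those of Prkar1a and Prkar1b 74.5%. The coding sequences of the inhibitors were less alike, at 51.7% to 61.8%. Over whole canonical transcripts, untranslated parts included, the longest shared run was 34 bases for Prkaca and Prkacb. It was 36 for Prkar2a and Prkar2b, and 17 for Prkar1a and Prkar1b. Exons of other genes overlap Prkaca, Prkacb, Prkar1a, Prkar1b and Pkig, and the use of strand in the counting is not given in the sources used here, so those 5 totals may hold reads of a neighbour.

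The rest of the cyclic AMP pathway was described by 69 genes in 6 lists, of which 66 were listed under these symbols and 64 tested. Of these, 0 were called by edgeR and 8 had an unadjusted p under 0.05, beside 5.38% of all genes. The mean was higher in Tas1r3-/- WD for 48 and lower for 16, beside 49% of all genes higher. The lists were written with earlier results of these data known, and the genes at large were not matched to them in level. The shares given for these lists are therefore a description and not a test of the pathway. Both Tas1r3-/- WD libraries were above both WT WD libraries in 24, beside 20.6% of genes, and below in 3, beside 19%. The median log2 fold change was 0.15. When WT WD replicate 2 was left out, the median was 0.18, 46 were higher, beside 50.4% of genes, and 17 had an unadjusted p under 0.05, beside 13.7%, with 0 called. Without WT WD replicate 1, 18 of the genes were called, beside 14.3% of all genes.

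Upstream, the G protein alpha subunits had 4 of 7 higher in mean, and 2 of 7 without WT WD replicate 2. Gnas, which encodes the alpha subunit that activates adenylyl cyclase, was at 3393 and 2793 CPM in WT WD against 3312 and 3242 CPM in Tas1r3-/- WD (log2 fold change 0.08, adjusted p = 0.896, edgeR), and turned to -0.05 without WT WD replicate 2 (adjusted p = 0.697). The adenylyl cyclases, which make cyclic AMP, had 7 of 9 higher in mean with and without that library. Adcy5 was at 247 and 239 CPM in WT WD against 267 and 244 CPM in Tas1r3-/- WD (log2 fold change 0.07, adjusted p = 0.896, and 0.05 without WT WD replicate 2). Of the phosphodiesterases, which break cyclic nucleotides down, 10 of 16 were higher in mean, and 12 of 16 without WT WD replicate 2. Pde2a was at 208 and 282 CPM in WT WD against 201 and 160 CPM in Tas1r3-/- WD, a log2 fold change of -0.44 (adjusted p = 0.756) and of -0.20 without WT WD replicate 2.

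Anchoring proteins, which tether the regulatory subunits, had 11 of 12 higher in mean, beside 49% of all genes, 7 of them with both Tas1r3-/- WD libraries above, beside 20.6%. Their median log2 fold change was 0.29. Leaving out WT WD replicate 2 gave a median of 0.27 with 10 of 12 higher. The 3 with an unadjusted p under 0.05 did not pass the adjusted test. Map2, a dendritic microtubule protein that binds RII subunits, was at 1069 and 652 CPM in WT WD against 1295 and 1277 CPM in Tas1r3-/- WD, a log2 fold change of 0.58 (SE 0.26, adjusted p = 0.756, edgeR) and of 0.27 without WT WD replicate 2 (adjusted p = 0.178). Its low library was again WT WD replicate 2.

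Among the other cyclic AMP receptors and the related kinase Prkx, 5 of 7 were higher in mean with and without WT WD replicate 2. Hcn2, a channel gated by cyclic nucleotides, was at 248 and 346 CPM in WT WD against 255 and 240 CPM in Tas1r3-/- WD (log2 fold change -0.26, adjusted p = 0.768, edgeR). Its highest library was WT WD replicate 2, and its log2 fold change without it was -0.0057 (adjusted p = 0.988). Of the PKA substrates and CREB coactivators, 11 of 13 were higher in mean, and 10 of 13 without WT WD replicate 2. Sik3, a kinase that PKA phosphorylates, was at 219 and 197 CPM in WT WD against 226 and 221 CPM in Tas1r3-/- WD (log2 fold change 0.10, adjusted p = 0.841, edgeR), and 0.03 without WT WD replicate 2.

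The mean profile of the 9 members, as log2 CPM centred on each gene, was 0.09 and -0.17 in WT WD against 0.06 and 0.02 in Tas1r3-/- WD, so WT WD replicate 2 was the lowest library. The genes outside the members with the closest profile over the 4 libraries were Rbl2, Kansl3 and Ubp1, with root mean square differences of 0.0042, 0.0051 and 0.0058. Because they were picked by this profile, each was also lowest in WT WD replicate 2. Rbl2 was at 67.5 and 56.6 CPM in WT WD against 66.4 and 64.1 CPM in Tas1r3-/- WD.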

How the data were processed

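RNA was sequenced from the hypothalamus of 2 WT WD and 2 Tas1r3-/- WD samples, grouped by the labels. The submitters' processing notes and methods name STAR in Partek, mm39 and RefSeq release 93. The authors deposited estimated counts (expected counts) for each RefSeq transcript and library without normalization, and each listed transcript totals at least 10. The table of the whole series was used, and the 4 tables of single samples hold identical values. The planned design assumed counts for genes. Transcripts were therefore summed by gene symbol, with names from a RefSeq table of GRCm38.p6, and rounded for the count models. The 39 transcripts without a name, 0.347% to 2.49% of a library, were left out. Lengths and coordinates came from GENCODE M39 on GRCm39.

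Genes and transcripts were tested in R 4.3.3 with edgeR 4.0.16 (quasi-likelihood, TMM, filterByExpr, Benjamini-Hochberg). Alternatives were DESeq2 1.42.0, limma-trend in limma 3.58.1, RLE size factors, total counts, other filters, no fold threshold, a length offset (loess, span 0.3), a replicate block, both together, and leaving out each library. The median CCDS length for ratios, counts not divided by length, and calls at an unadjusted p under 0.05 were also used, and the first and last were added after seeing the data. In data simulated with the common dispersion of these libraries for every gene, edgeR recovered 16% of genes changed 2-fold and 95% of those changed 4-fold. This was over 14172 genes tested. The limit set by an absence of counts was 3 counts, or 0.485 to 0.524 CPM, and like the Poisson intervals covers counting error only.

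The members and lists were chosen with earlier results of these data known. Named genes were all members and their transcripts, Tas1r3, the most abundant tested gene of each pathway list, and the 3 genes closest to the members' mean profile. The alternatives are in the closing section.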

Additional observations from a re-analysis of the deposited data

How the results depend on the processing

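All alternatives that kept the 4 libraries left every direction and call of the members as reported. The inhibitor to catalytic difference fell to 0.031 (exact permutation p = 1.0) without division by length. The number of genes called was 8 with DESeq2 and 772 at an unadjusted p under 0.05, and the number of transcripts called was 7 and 1179, in place of 0. With the replicate block, 0 genes were called and the members' median log2 fold change was 0.09. Same-numbered replicates correlated at 0.0821 in their deviations from the group means and the labels do not pair them, so nothing was paired in the results. Leaving out each library in turn gave 0 to 2122 genes, 0 to 104 transcripts, 0 to 1 members and 0 to 18 pathway genes called, a members' median of -0.016 to 0.24, a regulatory to catalytic difference of -0.13 to -0.07 and an inhibitor to catalytic difference of 0.04 to 0.08 on the log2 scale, and a Prkacb share difference of 0.349 to 10.6 points. The highest counts were without WT WD replicate 1, and 32 genes were called without WT WD replicate 2. A lone library was assumed to vary like the other group. Directions turned without WT WD replicate 2 for Prkaca (-0.036), Prkacb (-0.016), Prkar1b (-0.197) and Pkig (-0.083), for Prkaca without Tas1r3-/- WD replicate 1 (-0.0097), and for Prkar1b without Tas1r3-/- WD replicate 2 (-0.025), and the cause was not tested. The highest values of these genes came without WT WD replicate 1, at 0.078 for Prkaca, 0.700 for Prkacb, 0.315 for Prkar1b and 0.376 for Pkig. Dividing each transcript by its own RefSeq length was not run, since those lengths were not used here. In data simulated with a common dispersion for every gene, 16% of 2-fold changes were recovered, and the members' differences were smaller than 2-fold. The simulation held no library set apart like WT WD replicate 2. Its share is not the power for the members, whose own SEs ran from 0.12 for Prkar2a to 0.26 for Prkacb.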
